A study of Mus musculus with 16 samples.

Results

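The 6 trace amine-associated receptor genes Taar2, Taar3, Taar4, Taar5, Taar6 and Taar9 were followed through mouse olfactory mucosa sorted for an activity reporter. They were taken by gene symbol from the platform annotation, which held 6 of 6, each with 1 probe set, among 15 Taar genes and 19505 genes in all. Their NCBI Gene identifiers are 209512 (Taar2), 493809 (Taar3), 209513 (Taar4), 215854 (Taar5), 215855 (Taar6) and 503558 (Taar9), and all 6 matched a RefSeq gene of the same symbol in the mouse assembly GRCm38.p6, on chromosome 10.

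Every sample came from S100a5-tauGFP mice, in which a green fluorescent protein (GFP) reporter is driven by the promoter of S100a5. That gene encodes a calcium-binding protein and is expressed in olfactory sensory neurons when they are active. The 24 mice, of both sexes and 7 to 12 weeks old, were housed singly in chambers under clean air flowing at 3.1 L/min for 40 hours, and from hour 26 received 10-second pulses every 20 min of indole/ionone (odor) or of filtered air (vehicle). Mucosa pooled from 3 mice was dissociated and sorted, giving 4 groups of 4 samples: odor GFP+, odor GFP-, vehicle GFP+ and vehicle GFP-. Both fractions of a pool come from the same 3 mice, and each sample was hybridised to 1 Clariom S array. Values are log2 signals. The sources used here give no dose, ionone isomer or strain background.

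Trace amine-associated receptors are G protein-coupled receptors related to the receptors for biogenic amines, and in the nose they detect volatile amines. Each is used by a small set of sensory neurons that express no other olfactory receptor, and most of these neurons lie in the dorsal part of the epithelium and send axons to the dorsal olfactory bulb. They signal through the same G protein, cyclase and cyclic nucleotide-gated channel as odorant receptors. Taar2, Taar3 and Taar4 belong to the branch of the family known for primary amines, and Taar5, Taar6 and Taar9 to the branch known for tertiary amines. In the mouse, Taar3 is known as a receptor for isoamylamine, Taar4 for phenylethylamine, which is abundant in carnivore urine, and Taar5 for trimethylamine, a component of male mouse urine. Taar1 is the family member that the olfactory epithelium is known not to use.

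Taar2 and Taar3 are direct neighbours in the gene cluster and carried opposite fraction differences below, so the sequences around their annotated starts are shown. Each runs 5′ to 3′ on the gene's strand, from 250 bases before to 50 bases after the RefSeq start (GRCm38.p6), at chr10:23938322-23938621 (plus strand) and chr10:23949308-23949607 (plus strand). Capitals mark TAATNA, the core bound by homeodomain proteins such as Lhx2, or TATAAA, the TATA box.
Taar2: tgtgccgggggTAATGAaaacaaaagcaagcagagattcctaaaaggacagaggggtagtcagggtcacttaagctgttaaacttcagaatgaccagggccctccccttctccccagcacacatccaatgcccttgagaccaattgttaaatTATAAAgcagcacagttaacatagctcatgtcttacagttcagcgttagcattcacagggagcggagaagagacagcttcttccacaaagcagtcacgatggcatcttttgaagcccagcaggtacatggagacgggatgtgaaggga
Taar3: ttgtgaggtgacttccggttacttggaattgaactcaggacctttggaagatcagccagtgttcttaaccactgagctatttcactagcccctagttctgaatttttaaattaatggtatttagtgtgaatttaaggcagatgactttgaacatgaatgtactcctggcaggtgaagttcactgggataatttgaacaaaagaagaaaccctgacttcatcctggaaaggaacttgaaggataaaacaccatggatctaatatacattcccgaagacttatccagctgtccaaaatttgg

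The Taar2 window held TAATNA 239 bases and TATAAA 98 bases upstream of the annotated start, and the Taar3 window held neither. RefSeq promoter windows were available for 5 of the 6 genes. Searched on both strands, TAATNA occurred in 2 of these 5, Taar2 and Taar5, against 26.5% of all 32851 windows and 65.8% of the 948 windows of odorant receptor genes (symbols beginning Olfr). TATAAA occurred in 2 of 5, again Taar2 and Taar5, against 13.6% of all windows and 41.0% of Olfr windows. CCCNNGGG, a core of the sites bound by Ebf proteins, occurred in 0 of 5, against 13.7% and 3.06%. In Taar5 the 4 TAATNA matches lay 103, 88, 61 and 58 bases upstream, the last 2 of them overlapping. Its TATAAA match began 5 bases upstream and ended on the annotated start itself, so it counts as a sequence match and not as a placed TATA box. In all 5 windows the annotated start is the first base of an ATG, as at the start of a coding sequence, so a window need not hold the promoter. Whether the other windows start in the same way was not examined, so the shares may compare unlike regions.

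On the arrays as a whole, GFP+ and GFP- samples lay apart on the first principal component (50.0% of the variance), no GFP+ sample being above -65.3 and no GFP- sample under 56.2. The GFP- sample of odor replicate 3 stood apart on the second component, at 90.4 against 27.6 for the next sample. The pools numbered 3 of both arms had low Y-linked genes (mean log2 level of 3 genes at most 3.49, against at least 9.27 in the other pools). The reporter's own gene, S100a5, was higher in the GFP+ fraction, with log2 differences of 1.31 ± 0.17 (odor pools) and 1.27 ± 0.17 (vehicle pools; SE, n = 4 pools, limma adjusted p = 0.000184 and 0.000228). The 23 background probe sets had array medians of 5.63 to 6.05, with single sets averaging 2.38 to 7.48. Taar5 lay under its array's background median on 16 of 16 arrays, and Taar2 on 3 of 8 GFP+ arrays.

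GFP+ and GFP- cells of the same pool were compared first, which asks in which sorted fraction each receptor's RNA sat. Taar3, Taar4 and Taar9 were higher in GFP+ cells by 2.51 to 3.78 on the log2 scale, Taar5 was slightly higher at a dim level, and Taar2 and Taar6 were lower. All 6 passed in odor pools and all 6 in vehicle pools (limma, Benjamini-Hochberg adjusted over 19505 genes, threshold 0.05), 4 higher and 2 lower in each. Of all genes, 18.6% were called in odor pools and 19.7% in vehicle pools: 7.96% were called higher and 10.6% lower in odor pools, and 8.86% higher and 10.8% lower in vehicle pools. The split ran through both branches of the family, with Taar2 apart from Taar3 and Taar4, and Taar6 apart from Taar9. The share of all genes whose fractions did not overlap, or differed alike in every pool, was not computed. Such separation, given below for single members, therefore says nothing particular to these receptors. In these sorted mixtures, fewer neurons that use a receptor and less of its RNA per neuron cannot be told apart.

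Among the receptors of the primary-amine branch, Taar2 was low in GFP+ cells. In odor pools its log2 levels in replicates 1 to 4 were 6.35, 4.71, 6.67 and 6.62 in GFP+ cells, against 10.29, 10.72, 10.66 and 11.71 in GFP- cells. In vehicle pools they were 5.18, 6.22, 6.16 and 5.33 in GFP+ cells, against 10.24, 10.86, 9.84 and 10.72 in GFP- cells. The fractions did not overlap in either arm, and every GFP- sample was above 9.8. The within-pool difference was -4.75 ± 0.34 in odor pools (SE, n = 4, limma adjusted p = 1.31e-06) and -4.69 ± 0.34 in vehicle pools (limma adjusted p = 1.52e-06), or 27.0-fold and 25.9-fold lower. Since GFP+ levels lay around the background medians, the true differences could be larger than those measured, which was not tested.

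Taar3, the isoamylamine receptor, ran the other way. In odor pools it had log2 levels of 11.35, 11.19, 11.36 and 11.50 in GFP+ cells, against 7.48, 8.42, 8.41 and 9.05 in GFP- cells. In vehicle pools it had 11.85, 10.97, 10.19 and 10.84 in GFP+ cells, against 5.16, 7.31, 8.55 and 7.71 in GFP- cells. GFP+ levels were above all GFP- levels in both arms, and the GFP- sample of vehicle replicate 1 was the low one, under the background median of 5.82 on its array. The difference was 3.01 ± 0.59 in odor pools (limma adjusted p = 0.00343) and 3.78 ± 0.59 in vehicle pools (limma adjusted p = 0.000650), or 8.05-fold and 13.8-fold. As for every member, the SE is the same in both arms because they share a variance in the fit. Vehicle pools ranged from 1.64 in replicate 3 to 6.69 in replicate 1, and their mean difference was 2.81 without replicate 1 and 4.50 without replicate 3. With plain variances in place of moderated ones the call in odor pools was lost (adjusted p = 0.0553). Fitted to the pools of each arm alone, the SE was 0.23 in odor pools and 0.67 in vehicle pools. Both calls held there (limma adjusted p = 5.94e-05 and 0.00568).

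Taar4, the phenylethylamine receptor, resembled Taar3. Its log2 levels in odor pools were 10.83, 10.69, 10.39 and 11.37 in GFP+ cells, against 7.23, 8.01, 7.78 and 9.01 in GFP- cells. In vehicle pools they were 11.50, 10.48, 9.73 and 11.02 in GFP+ cells, against 7.40, 8.03, 8.44 and 8.83 in GFP- cells. All 8 pools had the higher level in GFP+ cells, by 1.29 at the least (vehicle replicate 3) and 4.09 at the most (vehicle replicate 1). The difference was 2.81 ± 0.35 in odor pools (limma adjusted p = 0.000130) and 2.51 ± 0.35 in vehicle pools (limma adjusted p = 0.000323), or 7.03-fold and 5.68-fold.

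**Figure D1:**
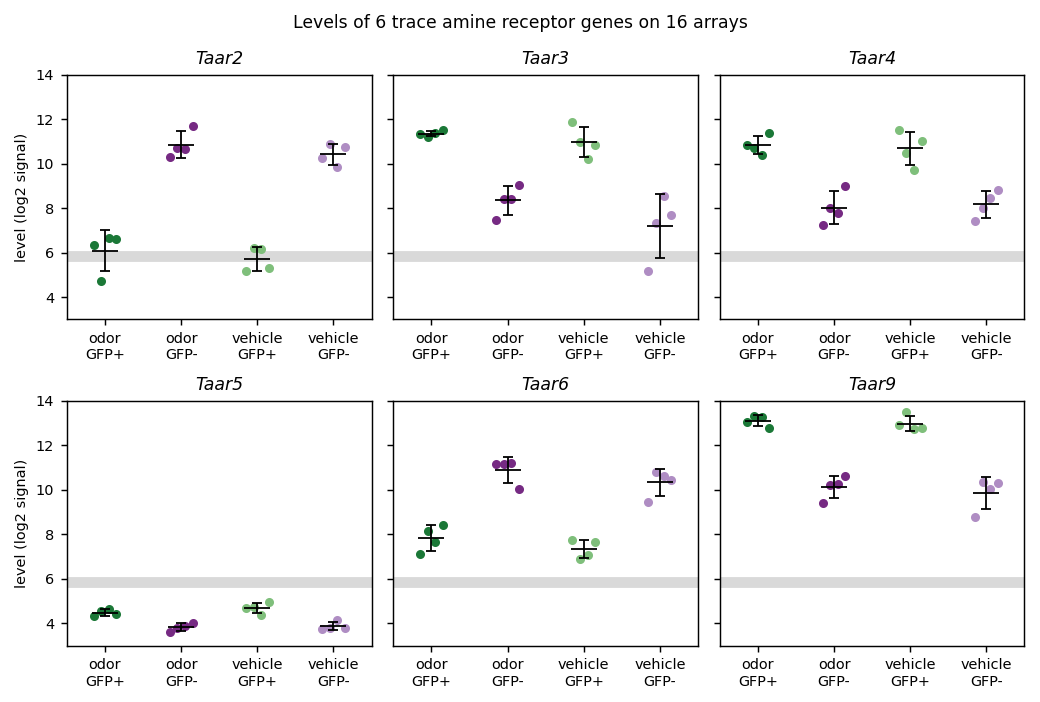
Log2 level of each receptor gene on each array (points, replicates 1 to 4 from left to right) in odor GFP+, odor GFP-, vehicle GFP+ and vehicle GFP- cells, with the group mean and SD as black bars. The grey band spans the arrays' background medians, 5.63 to 6.05. GFP+ points lie above GFP- points for Taar3, Taar4, Taar5 and Taar9 and below them for Taar2 and Taar6, and all Taar5 points lie under the band. The share of all genes separated in this way was not computed.

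In the tertiary-amine branch, Taar9 was higher in GFP+ cells of every pool. In odor pools its log2 levels were 13.04, 13.32, 13.28 and 12.77 in GFP+ cells, against 9.42, 10.21, 10.27 and 10.62 in GFP- cells. In vehicle pools they were 12.90, 13.48, 12.73 and 12.78 in GFP+ cells, against 8.79, 10.35, 10.03 and 10.30 in GFP- cells. The lowest GFP+ sample, at 12.73, was above the highest GFP- sample, at 10.62. The difference was 2.97 ± 0.27 in odor pools (limma adjusted p = 9.84e-06) and 3.11 ± 0.27 in vehicle pools (limma adjusted p = 6.80e-06), or 7.83-fold and 8.62-fold.

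Taar6, of the same branch, was lower in GFP+ cells, yet above the background median on all 16 arrays, though 3 of its 8 GFP+ levels lay under 7.48, the highest mean of a single background set. Its log2 levels in odor pools were 7.11, 8.13, 7.66 and 8.44 in GFP+ cells, against 11.17, 11.18, 11.19 and 10.03 in GFP- cells. In vehicle pools they were 7.75, 6.88, 7.09 and 7.64 in GFP+ cells, against 9.45, 10.82, 10.64 and 10.46 in GFP- cells. The fractions did not overlap, and the lowest GFP- sample of each arm, odor replicate 4 and vehicle replicate 1, gave the smallest differences, -1.60 and -1.70. The mean difference was -3.06 ± 0.39 in odor pools (limma adjusted p = 0.000156) and -3.00 ± 0.39 in vehicle pools (limma adjusted p = 0.000180), or 8.34-fold and 8.02-fold lower.

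Taar5, the trimethylamine receptor, was dim throughout. In odor pools its log2 levels were 4.32, 4.54, 4.65 and 4.42 in GFP+ cells, against 3.63, 3.81, 3.88 and 4.02 in GFP- cells. In vehicle pools they were 4.71, 4.73, 4.39 and 4.96 in GFP+ cells, against 3.74, 3.80, 4.13 and 3.80 in GFP- cells. Although under the background medians, it was higher in GFP+ cells in 8 of 8 pools, by 0.25 to 1.16. The difference was 0.65 ± 0.16 in odor pools (limma adjusted p = 0.0151) and 0.83 ± 0.16 in vehicle pools (limma adjusted p = 0.00318). The odor call was lost without odor replicate 1 (adjusted p = 0.0594), 2 (0.0605) or 3 (0.0563), and whether a signal this dim follows Taar5 RNA was not tested.

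**Figure D2:**
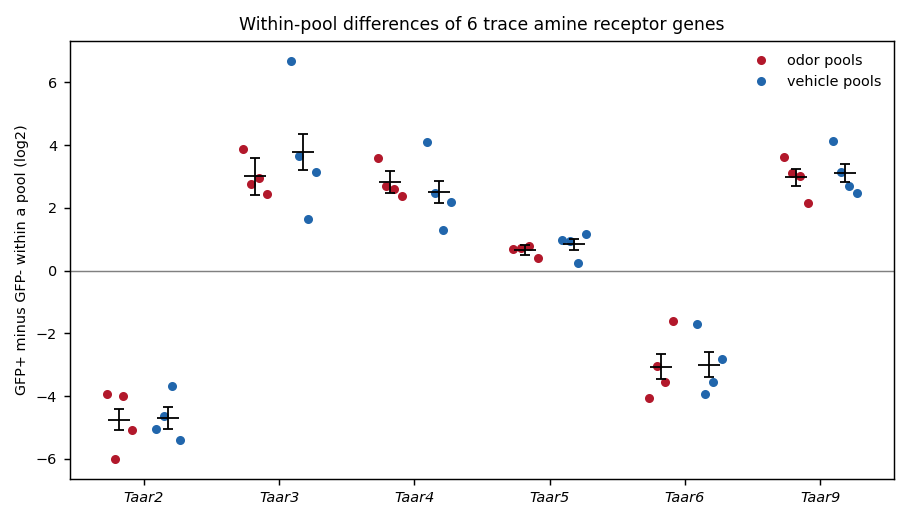
GFP+ minus GFP- log2 level within each pool (points, replicates 1 to 4 from left to right) for odor and vehicle pools, with the mean and the SE of the limma fit as black bars. Taar3, Taar4, Taar5 and Taar9 lie above 0 and Taar2 and Taar6 below 0 in 8 of 8 pools, and the widest spread is that of Taar3 in vehicle pools, from 1.64 to 6.69.

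The genes were then set in their chromosomal order. Of the cluster's 16 genes, 15 were measured, and the members take places 2 to 6 and 16. The difference was negative at Taar2, positive at its neighbours Taar3 and Taar4, and negative at Taar6. Taar5, between Taar4 and Taar6, gave a small positive difference of a signal under the background medians. Of the other 9 Taar genes, 4 were higher and 3 lower in GFP+ cells of odor pools, with a median of 0.06, and 2 were higher and 3 lower in vehicle pools, with a median of -0.03. In odor pools these 9 spanned -1.85 to 1.42 and in vehicle pools -2.24 to 1.14, within the members' range of -4.75 to 3.01 and of -4.69 to 3.78. Taar7a, at -1.85 ± 0.22 in odor pools and -2.24 ± 0.22 in vehicle pools, next to Taar6, was lower too. Beyond it the sign alternated. Taar7b (1.27 in odor and 0.64 in vehicle pools) and Taar7e (1.42 and 0.99) were positive, though Taar7b did not pass in vehicle pools. Taar7d (-0.83 and -0.84) and Taar7f (-1.34 and -1.38) were negative. Taar1, not an olfactory receptor, differed by 0.06 ± 0.20 in odor pools and 0.29 ± 0.20 in vehicle pools and did not pass (limma adjusted p = 0.870 and 0.341). Like Taar5, Taar1 lay under the background median on every array, so its small difference bounds no difference of its RNA. Taar8a, Taar8b and Taar8c lay near the background medians, with group means of at most 6.33 (Taar8c, odor GFP+). Even so, Taar8a was called higher in both arms and Taar8c in odor pools. Whether such dim signals narrowed the span of the other 9 genes was not tested. Members of the Taar7 and Taar8 subfamilies resemble each other closely, and cross-hybridisation between their probe sets was not examined.

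**Figure D3:**
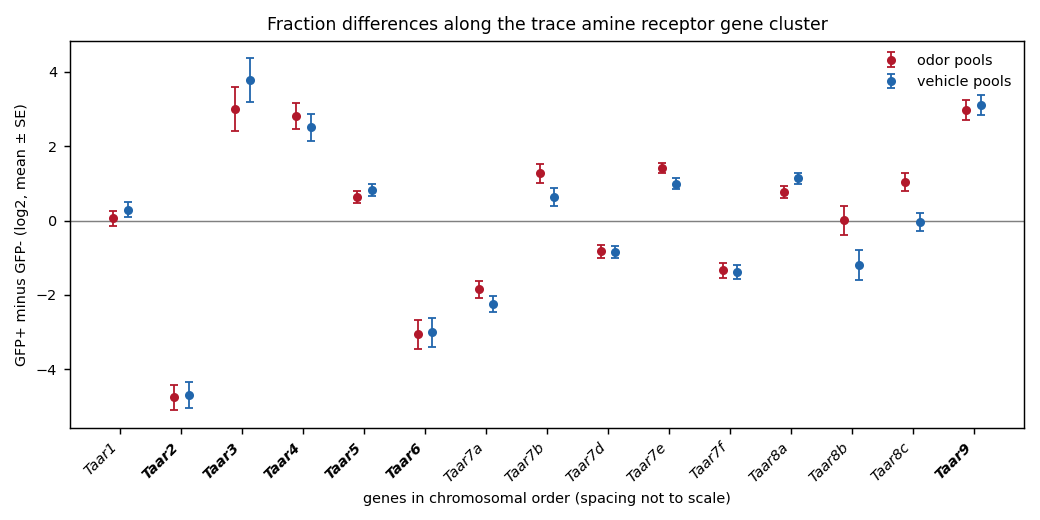
GFP+ minus GFP- log2 difference (mean of 4 pools, SE of the limma fit) of the 15 measured Taar genes in chromosomal order, with equal spacing that is not to scale, for odor and vehicle pools. The members, in bold, hold both the lowest value (Taar2, -4.75 in odor pools) and the highest (Taar3, 3.78 in vehicle pools), and the neighbours Taar2 and Taar3 have opposite signs.

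Among the 1091 odorant receptor genes measured, 43.2% were called higher and 23.0% lower in GFP+ cells of odor pools, and 43.1% and 25.6% in those of vehicle pools, with median differences of 0.43 and 0.38. The 6 members had medians of 1.73 and 1.67. These fall between Taar5 (0.65 and 0.83), whose signal lay under the background medians, and Taar4 (2.81 and 2.51), so they describe neither side of the split. In odor pools 4.22% of odorant receptors had a lower difference than Taar2, and 10.3% a lower one than Taar6. Higher differences than those of Taar3, Taar9 and Taar4 were held by 7.52%, 7.97% and 10.2% of them. In vehicle pools the shares were 4.86% below Taar2, 11.0% below Taar6, and 2.57%, 6.05% and 11.6% above Taar3, Taar9 and Taar4. When 1 pool was left out, the share above Taar3 in vehicle pools was 7.61% without replicate 1 and 1.10% without replicate 3, and that above Taar4 was 18.97% without replicate 1. No rank is given for Taar5, whose signal lay under the background medians. The spread between pools of a group (SD of log2 levels) had a median over the members of 0.33 in odor GFP+, 0.59 in odor GFP-, 0.48 in vehicle GFP+ and 0.61 in vehicle GFP- samples, against 0.43, 0.49, 0.40 and 0.42 over odorant receptors in the same order.

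**Figure D4:**
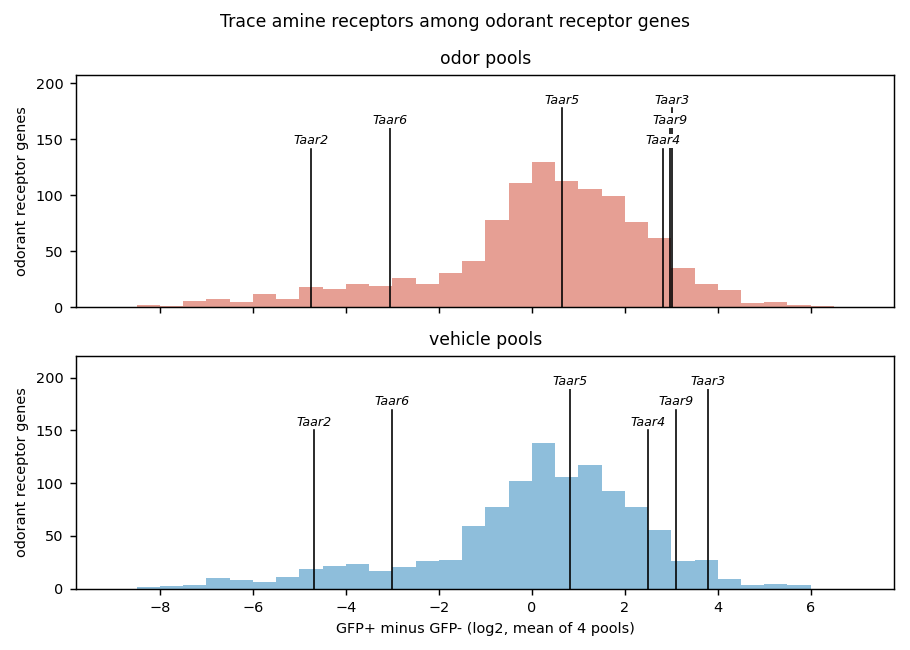
Number of odorant receptor genes (1091 in all) by GFP+ minus GFP- log2 difference, in bins of 0.5, in odor pools (top) and vehicle pools (bottom), with the members marked by vertical lines. Taar2 and Taar6 lie in the left tail and Taar3, Taar4 and Taar9 in the right part of both distributions.

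Of 15 transduction genes that serve these receptors, 2 were higher (13.3%, against 7.96% of all genes) and 1 lower in GFP+ cells of odor pools. In vehicle pools 4 were higher (26.7%, against 8.86% of all genes) and 1 lower. The G protein subunit gene Gnal differed by 0.16 ± 0.13 and 0.28 ± 0.13, the cyclase gene Adcy3 by 0.14 ± 0.13 and 0.29 ± 0.13 and the channel gene Cnga2 by 0.21 ± 0.13 and 0.23 ± 0.13 in odor and vehicle pools, none past the threshold (limma adjusted p from 0.152 to 0.507). The phosphodiesterase gene Pde1c was higher, by 0.67 ± 0.12 and 0.61 ± 0.12 (limma adjusted p = 0.00241 and 0.00479). The gene lower in both arms was Gnas, a G protein subunit gene used by many cell types, at -3.97 ± 0.23 and -4.06 ± 0.23. Of 15 genes for receptor choice and trafficking, among them Lhx2, Ldb1, Ebf1 and Rtp1, limma called 0 in odor pools (0 at an unadjusted p under 0.05) and 0 in vehicle pools (4 at an unadjusted p under 0.05). Lhx2, whose product binds receptor gene enhancers, differed by 0.12 ± 0.13 and 0.11 ± 0.13. The dorsal zone genes Nqo1 (0.08 ± 0.12 and -0.08 ± 0.12) and Acsm4 (-0.06 ± 0.14 and -0.02 ± 0.14) and the ventral zone genes Ncam2 (0.21 ± 0.16 and 0.19 ± 0.16) and Nrp2 (0.30 ± 0.17 and 0.31 ± 0.17) did not pass.

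Markers of many other cell types moved with the fractions, and their part in the members' differences was not tested. Of 5 mature sensory neuron markers, 0 passed in either arm (limma, with 0 and 1 at an unadjusted p under 0.05). Their mean log2 level was 17.49 to 17.55 in odor GFP+, 17.23 to 17.44 in odor GFP-, 17.48 to 17.57 in vehicle GFP+ and 17.04 to 17.41 in vehicle GFP- samples. These levels lay near the highest value of the series, 19.4, and whether differences are compressed there was not tested. All 5 markers are also among the transduction genes above. Of 5 immature neuron markers, 4 were lower in GFP+ cells of each arm, with list means of 7.15 to 8.02 in odor GFP+ against 10.79 to 10.94 in odor GFP- samples, and 7.41 to 7.81 in vehicle GFP+ against 10.30 to 11.32 in vehicle GFP- samples. Nhlh1 was under the background in GFP+ cells of both arms. All 4 neutrophil markers were lower, with list means of 5.41 to 7.51 in odor GFP+ against 15.29 to 16.72 in odor GFP- samples, and 5.84 to 7.02 in vehicle GFP+ against 15.19 to 16.86 in vehicle GFP- samples. Lymphocyte (3 of 3), microvillar and brush cell (4 of 4), sustentacular (4 of 5) and globose basal cell markers (3 of 3 measured) were likewise lower in both arms. So were erythroid (2 of 2 measured) and Bowman gland markers (2 of 3). Neurog1, of the globose basal list, was under the background in both fractions. Of all genes, 10.6% were called lower in odor pools and 10.8% in vehicle pools. Other lists followed in part or not at all. Macrophage markers were lower in 1 of 2 (odor pools) and 2 of 2 (vehicle pools), and guanylyl cyclase D neuron markers in 1 of 4 and 2 of 4. Horizontal basal (0 of 3) and vomeronasal neuron markers (0 of 1) did not pass and lay under the background. The markers called lower ran with Taar2 and Taar6 and against Taar3, Taar4 and Taar9.

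The genes whose log2 levels followed each member most closely over the 16 arrays were described by Pearson's r. Arrays of the 2 fractions form separate clusters, so these values mostly restate the fraction difference. For Taar9 they were Olfr203 (r = 0.98), Olfr1093 (0.98) and Olfr424 (0.98). For Taar3 they were Olfr358 (0.96), the amino acid transporter gene Slc7a8 (0.96) and Olfr373 (0.96), and for Taar4 Olfr348 (0.97), the channel gene Panx1 (0.96) and Olfr373 (0.95). For Taar2 they were Cat, the gene of catalase (0.98), Olfr411 (0.98) and Olfr1495 (0.98), and for Taar5 Olfr1048 (0.94), Olfr697 (0.94) and Olfr981 (0.93). Taar6 alone of the members had no odorant receptor gene among its 3: they were Zfp36l1 (0.97), Map3k1 (0.96) and the class II histocompatibility gene H2-Eb1 (0.96), which differed between fractions by -3.40, -2.92 and -3.80 in odor pools and by -3.50, -3.16 and -4.16 in vehicle pools. Within a fraction the r were mostly lower. In the 8 GFP- arrays they ranged over the 18 gene pairs from 0.39 (Taar2 with Cat) to 0.97 (Taar4 with Panx1). In the 8 GFP+ arrays they ranged from -0.39 (Taar9 with Olfr203) to 0.86 (Taar4 with Panx1), and were 0.11 for Taar9 with Olfr1093 and 0.16 for Taar3 with Slc7a8.

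Odor was then compared with vehicle, to ask whether exposure to indole/ionone moved these receptors. In GFP+ cells limma called 0 of the 6 members and 0 at an unadjusted p under 0.05. Of all genes 0% were called (1070 at an unadjusted p under 0.05). Mean log2 levels in odor and vehicle GFP+ cells were 6.09 ± 0.93 and 5.72 ± 0.54 for Taar2, 11.35 ± 0.13 and 10.96 ± 0.69 for Taar3, and 10.82 ± 0.41 and 10.68 ± 0.76 for Taar4 (SD, n = 4 each). They were 4.48 ± 0.15 and 4.70 ± 0.24 for Taar5, 7.83 ± 0.58 and 7.34 ± 0.42 for Taar6, and 13.10 ± 0.25 and 12.98 ± 0.35 for Taar9. The ranges of the arms overlapped for all 6. The share of all genes with such overlap was not computed, so the count says nothing particular to these receptors. The largest difference of the 6, that of Taar6, was 0.49 ± 0.29, with a 95% interval of -0.15 to 1.13 (limma adjusted p = 0.927). The narrowest interval of a member above background was that of Taar9, from -0.30 to 0.55 around 0.13.

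In GFP- cells limma again called 0 of 6, with 0 at an unadjusted p under 0.05, against 0.00513% of all genes (697 at an unadjusted p under 0.05). Taar3 had mean log2 levels of 8.34 ± 0.65 in odor and 7.18 ± 1.44 in vehicle GFP- cells, a difference of 1.16 ± 0.61 with a 95% interval of -0.18 to 2.49 (limma adjusted p = 1.00, unadjusted 0.0824). Without vehicle replicate 1, whose Taar3 level was the low one at 5.16, that difference was 0.49. Taar2 averaged 10.84 ± 0.61 in odor and 10.42 ± 0.47 in vehicle GFP- cells, Taar4 8.01 ± 0.74 and 8.17 ± 0.61, Taar5 3.84 ± 0.16 and 3.87 ± 0.18, Taar6 10.89 ± 0.57 and 10.34 ± 0.61, and Taar9 10.13 ± 0.51 and 9.87 ± 0.73 (SD, n = 4 each). Each arm's range overlapped the other's for all 6, again without a share over all genes. The 6 differences ran from -0.17 (Taar4) to 1.16 (Taar3).

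The fraction difference itself was compared between the arms. Limma called 0 of 6 members (0 at an unadjusted p under 0.05) and 0% of all genes (654 at an unadjusted p under 0.05). Odor minus vehicle was -0.06 ± 0.48 for Taar2, -0.77 ± 0.83 for Taar3, 0.31 ± 0.50 for Taar4, -0.18 ± 0.23 for Taar5, -0.06 ± 0.56 for Taar6 and -0.14 ± 0.38 for Taar9. The 95% intervals were -1.12 to 1.00 for Taar2, -2.60 to 1.05 for Taar3, -0.80 to 1.41 for Taar4, -0.68 to 0.32 for Taar5, -1.28 to 1.17 for Taar6 and -0.98 to 0.71 for Taar9. Shifts of 1 on the log2 scale toward a higher GFP+ minus GFP- difference in odor pools lie outside the interval of Taar9, and inside those of Taar2, Taar3, Taar4 and Taar6. The interval of Taar5 describes a signal under the background medians and bounds no shift of its RNA. In order of level, Taar3, Taar4, Taar5 and Taar9 had their odor GFP+ and vehicle GFP+ groups on top and Taar2 and Taar6 their odor GFP- and vehicle GFP- groups, and within a fraction the arms did not differ beyond their spread.

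**Figure D5:**
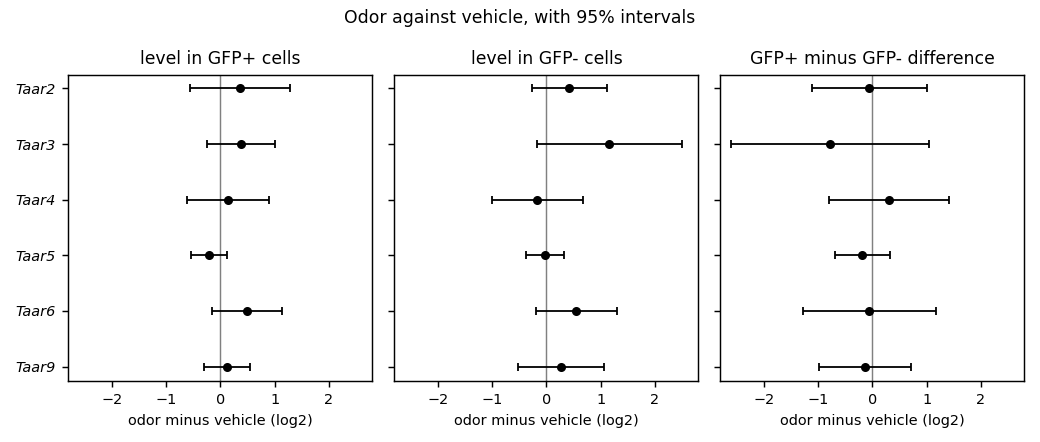
Odor minus vehicle for each member on the log2 scale (points, with 95% intervals of the limma fits), for the level in GFP+ cells, the level in GFP- cells and the GFP+ minus GFP- difference. All 18 intervals include 0, and the widest is that of Taar3 in the last panel, from -2.60 to 1.05.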

How the data were processed

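Each of the 16 samples was 1 Clariom S array, labelled from 50 to 100 ng of total RNA per the labels. The deposited values were taken as log2 of probe set signals. Per the submitters' processing notes the authors used Affymetrix Expression Console, whose version and settings the sources used here do not give. No label names the log base, and base 2 was inferred from the range of 1.67 to 19.4. Array medians lay between 6.05 and 6.39. The number of arrays limits the precision.

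The platform annotation gave 1 gene symbol for 19572 of 28846 probe sets, several for 0 and none for 9274. For the 55 genes with several, the probe set with the highest mean stood for the gene, which left 19505 genes. Differences, SEs and two-sided p-values came from limma 3.58.1 in R 4.3.3, fitted to all genes and adjusted by the Benjamini-Hochberg method with a threshold of 0.05. Enrichment within an arm and its difference between arms used the 8 within-pool GFP+ minus GFP- differences, both arms sharing the moderated variance of each gene, and odor was set against vehicle in the 8 GFP+ and the 8 GFP- samples separately. The fits were tested on simulated data. The likeness rule took the 3 genes with the highest Pearson r, other Taar genes left out.

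Pool codes in the titles pair the fractions (deviations from group means correlated at 0.109 to 0.249 in 8 pools). The titles number a pair of vehicle pools 3, and the second was called 4. Same-numbered odor and vehicle samples correlated at 0.114 to 0.242 in GFP+ cells, though the labels do not say what the numbers mark. The odor-against-vehicle values given come from fits without the number as a block, and the fit with it was an alternative. In GFP- cells the correlations were 0.066 to 0.332. The replicate is a pool of 3 mice, so the p-values reflect how much such pools vary. The members, gene lists and tests were chosen with earlier results of these data known.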

Additional observations from a re-analysis of the deposited data

Results flagged for a closer look

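In 36 sets of 4 values (6 genes in 4 groups and in the within-pool differences of 2 arms) 3 samples lay far from the other 3 of their group, and chance alone flags about 1 in 20 such sets. Taar2 stood at 4.71 in odor GFP+ replicate 2, against 6.35 to 6.67 in the other odor GFP+ samples. Taar6 stood at 10.03 in odor GFP- replicate 4, against 11.17 to 11.19 in the others of that group. Taar5 stood at 4.13 in vehicle GFP- replicate 3, against 3.74 to 3.80, all under the background medians.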

How the results depend on the processing

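Within the arms, 198 of 202 recomputed fraction differences of single members kept their direction and their side of the threshold, 4 lost the call (Taar3 with plain variances and Taar5 without 1 odor pool, given above) and 0 turned direction. Many settings altered only the variance, the genes kept, the probe sets averaged or the pools of the other arm. These leave a member's estimate as it was and could not turn its direction. Members called were 5 to 6 in odor pools and 6 in vehicle pools when 1 pool was left out. Of all 19505 genes, 2677 to 3768 were then called in odor pools and 2788 to 4202 in vehicle pools. Taar5 gave no value where only genes above 6 in a group were kept, which left 5 members, all called in both arms. At that setting 3203 (odor pools) and 3446 (vehicle pools) of 11575 genes were called. Without both pools numbered 3, chosen after seeing the data, all 6 were called in each arm, against 3072 and 3941 of all 19505 genes. Median centring raised the median difference of all genes to 0.34 from 0.11 in odor pools and to 0.26 from 0.11 in vehicle pools. It also raised the number of genes called to 8224 from 3620 in odor pools, with 78.5% of calls higher in place of 42.9%. In vehicle pools it raised the number to 5658 from 3835, with 67.6% of calls higher in place of 45.1%. With it the 6 members were still called in each arm.

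Odor against vehicle stayed at 0 members called under all alternatives, with adjusted p of at least 0.754, and the sign of small differences was not stable. It turned in the enrichment difference with median centring for Taar2 (0.0145) and Taar6 (0.0163) and with quantile normalization for Taar2 (0.0230). Without both pools numbered 3 it turned for Taar2 (0.0217) and Taar4 (-0.0301) in the enrichment difference, for Taar4 (-0.0343) and Taar9 (-0.0145) in GFP+ cells and for Taar5 (0.0430) in GFP- cells. The cause was not tested. When 1 pool was left out the enrichment difference ranged from -0.33 to 0.36 (Taar2), -1.49 to 0.20 (Taar3), -0.10 to 0.84 (Taar4), -0.54 to 0.38 (Taar6) and -0.35 to 0.20 (Taar9). The difference in GFP+ cells ranged from -0.18 to 0.41 (Taar4), and that in GFP- cells from -0.50 to 0.0896 (Taar4), -0.0919 to 0.0580 (Taar5) and -0.0947 to 0.50 (Taar9). With the replicate number as a block the enrichment difference of Taar3 was -0.77 ± 0.52 and its GFP- difference 1.16 ± 0.32 (limma adjusted p = 0.932), and the block changed no call of a member. Background signal limits Taar5 throughout, Taar2 in GFP+ cells and Taar3 in the GFP- sample of vehicle replicate 1. Some levels of Taar3 and Taar4 in GFP- cells and of Taar6 in GFP+ cells lay under 7.48, the highest mean of a single background set.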
